A study of Mus musculus with 8 samples.

Results

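Thyroid hormone genes of the mouse brain were compared between fasted and fed mice. The 9 genes followed were chosen by name: Slc16a10, which carries the hormone across membranes, the deiodinases Dio2 and Dio3, the receptors Thra and Thrb, and Hr, Klf9, Nrgn and Thrsp, which respond to the hormone. They were represented by 13 of the 39429 non-control probes of the array, as 60-base oligonucleotides with 1 spot each. Brain RNA came from 4 samples of mice fasted for 17 h and 4 samples of fed mice, each read on an Agilent single-colour expression array, 8 arrays in all. The labels give no genotype, strain, sex or age, and they do not say whether a sample was 1 animal or a pool, so a p-value here weighs a difference against the variation among samples, part of which may be technical. The tissue is labelled as brain with no region, and neuronal and glial markers such as Slc17a7, Gad1, Slc1a2 and Mog were well above background on all 8 arrays. In whole tissue, fewer cells of a type and less RNA per cell cannot be told apart.

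Thyroid hormone circulates mostly as thyroxine, enters brain cells through membrane transporters, and is turned into the more active triiodothyronine (T3) by the outer-ring deiodinase Dio2, which in adult brain is found in astrocytes and in tanycytes of the hypothalamus. Dio3 removes an inner-ring iodine and inactivates the hormone, mainly in neurons. T3 binds the nuclear receptors encoded by Thra and Thrb, which sit on DNA as partners of retinoid X receptors, with corepressors in the absence of hormone and coactivators in its presence. Fasting is known to lower circulating thyroid hormone in rodents and, in rats, to raise Dio2 in the mediobasal hypothalamus.

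Of the 9 genes, only Hr passed the test between fasted and fed brain. It was 1.26-fold higher in fasted brain (95% confidence interval 1.1 to 1.45, n = 4 per group). No probe of Dio2, Dio3, Thrb, Klf9, Nrgn or Thrsp passed. Thra was higher on the 4 fasted arrays than on every fed array with 1 of its 2 probes, just short of the threshold, and Slc16a10 could not be compared. Of the 13 probes, 10 were well above background on at least 4 arrays, and in fact on all 8, and were tested, covering 8 genes. Of these 10 probes 1 rose, 0 fell and 9 did not pass, where 8.4% of all 26066 tested probes rose and 8.55% fell, or 16.9% in either direction (limma, adjusted p under 0.05). At an unadjusted p under 0.05 there were 2 of the 10 probes and 8534 of all probes. Fasted and fed values did not overlap for 2 of the 10 probes, against 24.8% of all tested probes. The count of members that changed was thus near the share of all probes. Their median log2 difference, fasted minus fed, was 0.06 over the 10 probes, against -0.01 over all tested probes.

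**Figure D1:**
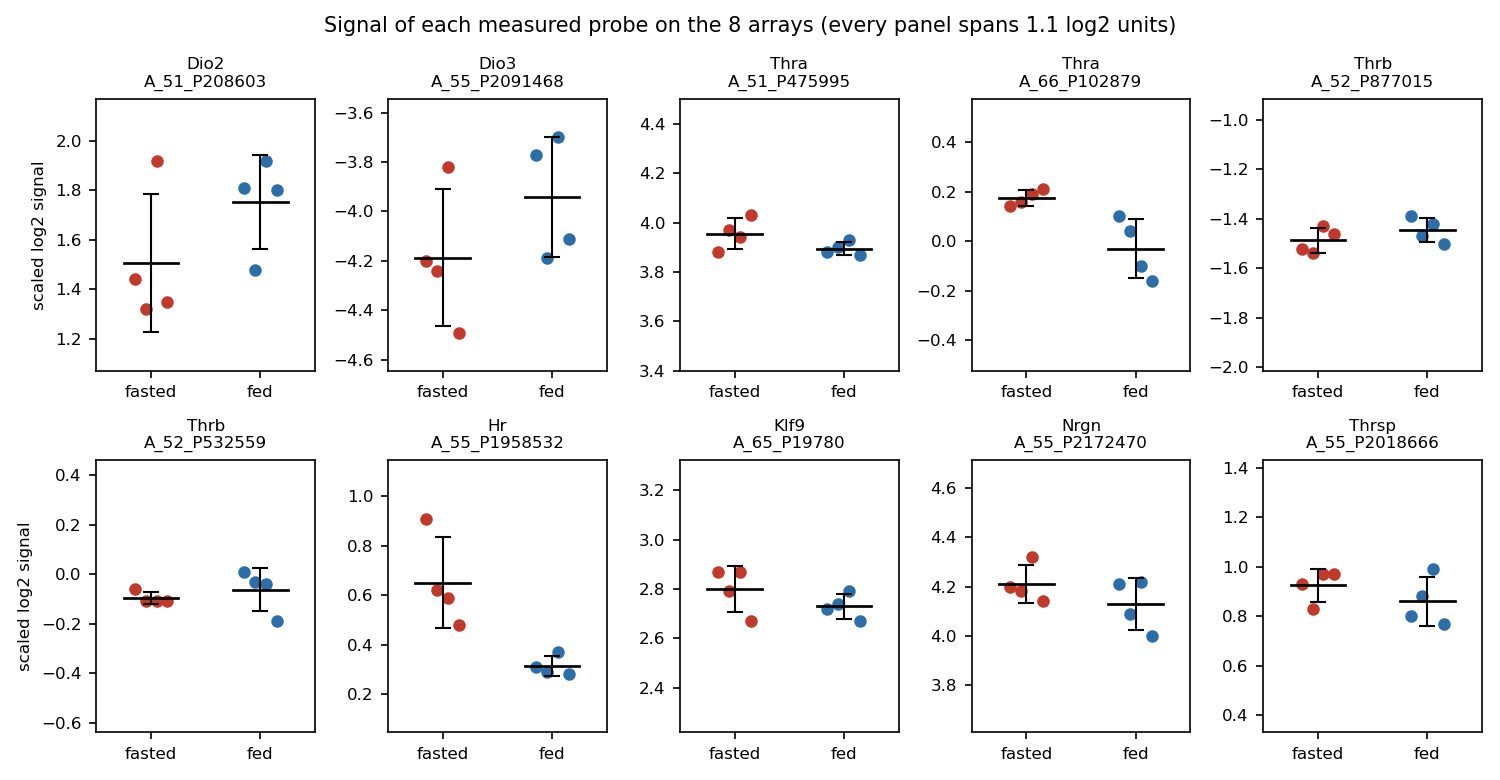
Scaled log2 signal (vertical axis, log2 of the processed signal minus the array's 75th percentile) of the 10 tested probes, with a point for each of the 4 fasted (left) and 4 fed (right) arrays, a line for the mean and a bar for the SD. The groups are separate for Hr and for the Thra probe A_66_P102879, and overlap in the other 8 panels.

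Levels are given here as scaled log2 signal, the log2 of a spot's processed brightness minus that of the array's 75th percentile, so that 0 is a probe as bright as that percentile. They are not compared between probes, since each oligonucleotide has its own brightness. Differences are fasted minus fed on this log2 scale, with adjusted p-values from limma over all tested probes.

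Hr encodes hairless, a nuclear corepressor that binds thyroid hormone receptors and is itself induced by T3 in rodent brain. Its probe (NM_021877) lies at chr14:70973263-70973322 of mm9, on the plus strand. Hr had scaled log2 signals of 0.91, 0.62, 0.59 and 0.48 in fasted brain, against 0.31, 0.29, 0.37 and 0.28 in fed brain. All fasted values were above all fed values, and fasted replicate 1 was the highest. Fasted minus fed came to 0.34 ± 0.09 (SE; adjusted p = 0.0329 in limma, 4 arrays per group). It was larger than the spread within either group, with an SD of 0.18 in fasted brain and 0.04 in fed brain. Without fasted replicate 1 the difference was 0.25 and still passed (adjusted p = 0.0226). Without any one of 6 others (fasted replicates 2 and 3 and the 4 fed replicates) it was 0.33 to 0.36 and did not pass (adjusted p = 0.0511 to 0.0781). Within slide 1 the difference was 0.47 and within slide 2 it was 0.21, with 2 arrays per group on each, and neither passed alone (adjusted p = 0.152 and 0.317).

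The probes behind the Hr and Thra values are shown 5′ to 3′ as the array design gives them, because each value reads only the stretch its probe matches. For Hr and for the first Thra probe the opening 30 of 60 bases are printed, and for the other Thra probe all 60, which span 807 bases of the genome and so cross at least 1 intron. No bases are capitalised.
Hr A_55_P1958532: gcacacgtgcgccagctcttgttatactta
Thra A_51_P475995: aaatggtagtcatcctaactgcactttgga
Thra A_66_P102879: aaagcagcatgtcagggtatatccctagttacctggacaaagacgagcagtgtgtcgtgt

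Thra encodes thyroid hormone receptor alpha, the predominant receptor of the brain, and both of its probes are assigned to NM_178060. Probe A_66_P102879, at chr11:98617475-98618281 of mm9, read 0.14, 0.16, 0.19 and 0.21 in fasted brain, against 0.10, 0.04, -0.10 and -0.16 in fed brain. The fasted values were close together and all above the fed ones, while fed replicates 3 and 4 were lowest. The difference was 0.20 ± 0.06 (SE; 95% confidence interval 0.07 to 0.34; limma adjusted p = 0.0518), which missed the threshold. Blocking on slide brought it under the threshold (adjusted p = 0.0457), and the replicate block, which pairs same-numbered arrays, did not (adjusted p = 0.0942). It was 0.08 within slide 1 and 0.33 within slide 2. The brighter probe A_51_P475995, at chr11:98626356-98626415, read 3.88, 3.97, 3.94 and 4.03 in fasted brain, against 3.88, 3.90, 3.93 and 3.87 in fed brain. Here the groups overlapped, and the difference was 0.06 ± 0.04 (SE; 95% confidence interval -0.03 to 0.15; adjusted p = 0.32).

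Whether the 2 Thra probes changed unequally was tested on their difference within each array. The signal of A_66_P102879 minus that of A_51_P475995 was -3.78 ± 0.04 in fasted brain and -3.93 ± 0.13 in fed brain (SD, n = 4 each). The change of 0.14 had p = 0.0857 in an exact two-sided permutation test, where 0.0286 is the smallest p possible, and 0.171 after adjustment over the 2 receptor genes. An unequal response of the 2 stretches of Thra was thus not shown. The 3′ end of Thra lies opposite Nr1d1, which encodes the clock repressor REV-ERB alpha from the other strand, and Nr1d1 differed by 0.10 ± 0.11 (SE; adjusted p = 0.561).

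Thrb encodes thyroid hormone receptor beta, which in brain is enriched in a few regions and in the hypothalamus serves feedback on the thyroid axis. Probe A_52_P532559, at chr14:18868800-18868859 of mm9, read -0.06, -0.11, -0.11 and -0.11 in fasted brain, against 0.01, -0.03, -0.04 and -0.19 in fed brain. Probe A_52_P877015, at chr14:18869432-18869491, read -1.52, -1.54, -1.43 and -1.46 in fasted brain, against -1.39, -1.47, -1.42 and -1.50 in fed brain. The groups overlapped on both probes. The differences were -0.03 ± 0.05 (SE; 95% confidence interval -0.14 to 0.08) and -0.04 ± 0.04 (-0.13 to 0.05), with adjusted p of 0.673 and 0.545. In these data a change of Thrb transcript beyond about 0.14 on the log2 scale in either direction was thus outside both intervals. The 2 Thrb probes changed alike to within -0.01 (exact two-sided permutation p = 0.886, n = 4 per group).

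**Figure D2:**
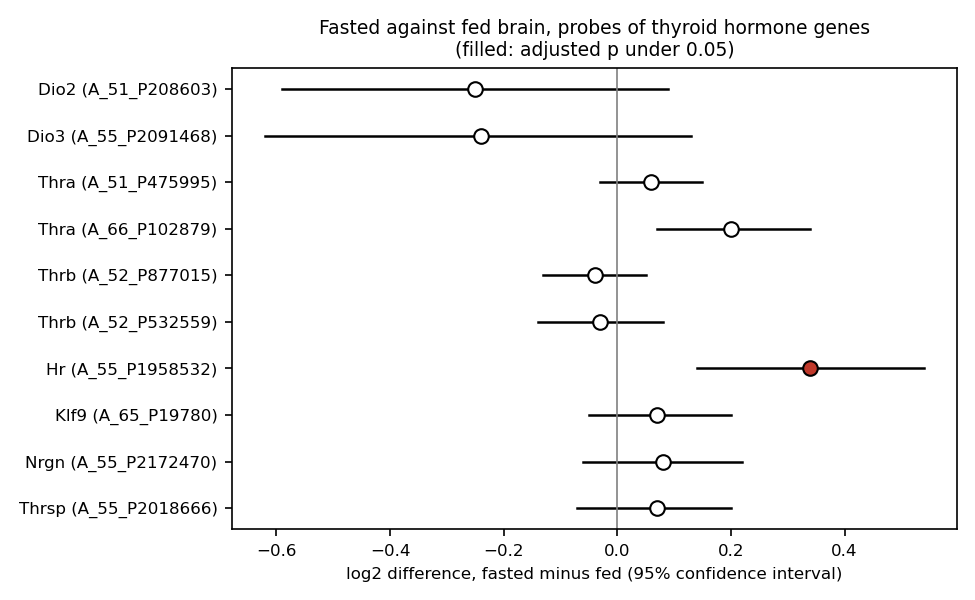
Log2 difference, fasted minus fed (horizontal axis), of the 10 tested probes, with points for the estimates, bars for limma's 95% confidence intervals and a filled point where the adjusted p was under 0.05. Only the Hr point is filled, at 0.34, and the widest intervals are those of Dio2 and Dio3.

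The deiodinases had the largest SDs within groups among the 10 tested probes, and their fasted and fed values overlapped. Dio2, the activating enzyme (NM_010050, probe at chr12:91963235-91963294 of mm9), read 1.44, 1.32, 1.92 and 1.35 in fasted brain, against 1.81, 1.48, 1.92 and 1.80 in fed brain. Fasted replicates 1, 2 and 4 were below every fed array, whereas fasted replicate 3 matched the highest fed array. The difference was -0.25 ± 0.15 (SE; adjusted p = 0.288), which is 0.842-fold with a 95% confidence interval of 0.664 to 1.07. Without fasted replicate 3 it was -0.39, with an adjusted p of 0.0502. Dio3, the inactivating enzyme (NM_172119, probe at chr12:111518792-111518851), read -4.20, -4.24, -3.82 and -4.49 in fasted brain, against -3.77, -4.19, -3.70 and -4.11 in fed brain. Its highest values were again those of replicate 3 in each group, and fasted replicate 4 was lowest. The difference was -0.24 ± 0.16 (SE; adjusted p = 0.337), which is 0.844-fold (0.651 to 1.09). Without fasted replicate 3 it was -0.37 and without fasted replicate 4 it was -0.14, and neither passed. The labels do not pair the samples, and same-numbered arrays share a slide. Between same-numbered arrays, fasted minus fed was -0.37, -0.16, 0.0 and -0.45 for Dio2 and -0.43, -0.05, -0.12 and -0.38 for Dio3. Dio2 was thus lower in fasted brain in 3 of these 4 comparisons and Dio3 in 4 of 4. The replicate block lowered the SE to 0.08 for each gene, and neither passed (adjusted p = 0.105 for Dio2 and 0.0938 for Dio3). Within slides 1 and 2, with 2 arrays per group on each, the Dio2 difference was -0.27 ± 0.13 and -0.23 ± 0.21 (SE). For Dio3 it was -0.24 ± 0.15 and -0.25 ± 0.29 (SE). None of these passed in limma (adjusted p = 0.324 and 0.639 for Dio2, 0.424 and 0.706 for Dio3).

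Dio2 is made by astrocytes and tanycytes, so markers of these cells are given beside it. By the brightest probe of each gene, 2 of 7 astrocyte markers rose (Gjb6 and Slc1a2), 1 fell (Aqp4) and 4 did not pass, although another probe of Aldh1l1 fell by 0.37 (adjusted p = 0.00396). Over all genes by brightest probe, 8.48% rose and 8.7% fell. The mean scaled log2 signal of the astrocyte markers was 1.99 to 2.03 on fasted arrays and 1.86 to 1.94 on fed arrays. Of 7 tanycyte markers 5 were tested and none passed by its brightest probe, while another probe of Col23a1 fell by 0.26 (adjusted p = 0.0164), with a mean of -0.12 to -0.01 on fasted arrays and -0.08 to 0.02 on fed arrays. Rax, a defining tanycyte gene, was below the well-above-background mark on all 8 arrays, so the part of this small population in the Dio2 signal was not tested. The markers' part in the Dio2 and Dio3 values was not tested either.

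Klf9, Nrgn and Thrsp, which respond to T3 in brain or in liver, differed little. Klf9 encodes a Krüppel-like transcription factor that T3 and glucocorticoids both induce in brain cells (NM_010638, probe at chr19:23240410-23240469 of mm9). It read 2.87, 2.79, 2.87 and 2.67 in fasted brain, against 2.72, 2.74, 2.79 and 2.67 in fed brain. The groups overlapped, since fasted replicate 4 was as low as the lowest fed array. The difference was 0.07 ± 0.05 (SE; 95% confidence interval -0.05 to 0.20; adjusted p = 0.388). Nrgn encodes neurogranin, a calmodulin-binding protein of dendritic spines that depends on thyroid hormone in the forebrain of rats and goats (NM_022029, probe at chr9:37352694-37352753). It read 4.20, 4.18, 4.32 and 4.14 in fasted brain, against 4.21, 4.09, 4.22 and 4.0 in fed brain. The groups overlapped, and the difference was 0.08 ± 0.06 (SE; -0.06 to 0.22; adjusted p = 0.405). Of 7 markers of excitatory forebrain neurons, the cells that express Nrgn most, 0 passed by the brightest probe, while another probe of Tbr1 rose by 0.42 (adjusted p = 0.00313), with a mean of 0.99 to 1.01 on fasted arrays and 0.91 to 0.98 on fed arrays.

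Thrsp encodes Spot 14, a regulator of lipogenesis that T3 and carbohydrate feeding induce in liver (NM_009381, probe at chr7:104561649-104561708 of mm9). It read 0.93, 0.83, 0.97 and 0.97 in fasted brain, against 0.80, 0.88, 0.99 and 0.77 in fed brain. The groups overlapped, with a difference of 0.07 ± 0.06 (SE; 95% confidence interval -0.07 to 0.20; adjusted p = 0.459). Over Klf9, Nrgn and Thrsp the 95% confidence intervals ran from 0.955-fold to 1.17-fold, so changes within those bounds were not excluded.

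Slc16a10 encodes the monocarboxylate transporter MCT10, which carries T3 and aromatic amino acids. Its 3 probes were dim. Probes A_52_P527917 (NM_028247, chr10:39795726-39795785 of mm9) and A_51_P448618 (NM_001114332, chr10:39756480-39756539) were not well above background on any array, with scaled log2 signals of -7.06 to -6.92 and -6.93 to -5.49 in fasted brain, against -7.17 to -6.53 and -7.14 to -6.47 in fed brain. Probe A_52_P37702 (ENSMUST00000045307, chr10:39852910-39852969) was well above background on 1 fasted array and 2 fed arrays and read -4.91, -4.27, -5.40 and -4.53 in fasted brain, against -4.58, -4.25, -5.12 and -4.61 in fed brain. These values overlap and most are only upper bounds, so no fold is given and Slc16a10 was not tested.

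The 3 genes with array profiles most like that of Hr were found by the root mean square difference over the 8 arrays between log2 values centred on each gene's own mean, among 20099 genes. They were Aldh1a1, which makes retinoic acid (0.0663), the predicted gene Gm7467 (0.069) and Rhoj, a small GTPase of endothelial cells (0.0707). Their differences were 0.30, 0.34 and 0.38, with adjusted p of 0.026, 0.00719 and 0.0212. Any gene that is about as much higher in fasted brain comes close by this measure.

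Promoter windows of RefSeq (GRCm38.p6, 250 bases before to 50 after a gene's start) were listed for 7 of the 9 genes, in 8 windows; Thra and Hr had none. They were searched on both strands for AGGTCA, the hexamer that thyroid hormone receptors and several other nuclear receptors recognise. It was present in 1 of the 8 windows, against 16.3% of all 32851 windows. Direct repeats of AGGTCA spaced by 4 bases, the classical T3 response element, were present in 0 of the 8 windows and in 5 of all windows. The hexamer lay in the upstream window of Thrb, starting 184 bases before the start, and it is shown in capitals with 20 bases on each side because it was the only match (chr14:17660756-17660801, plus strand, GRCm38.p6).
Thrb promoter: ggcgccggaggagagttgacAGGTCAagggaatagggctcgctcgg

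Other genes of thyroid hormone transport, metabolism, receptor complexes and response were taken from a list arranged by role. Of its 56 genes outside the 9, 48 were tested, each by its brightest tested probe. Of these 48 genes 10 rose, 3 fell and 35 did not pass, where 8.48% of all 20119 genes rose and 8.7% fell. The list's median log2 difference was 0.01, against -0.01 over all genes. By sign alone the list was about evenly split, with 25 genes higher and 23 lower in fasted brain. Over all genes 9177 were higher and 10942 lower. Among the genes of the list that passed, more rose than fell. The list was chosen with earlier results of these data known, so these counts only describe it.

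**Figure D3:**
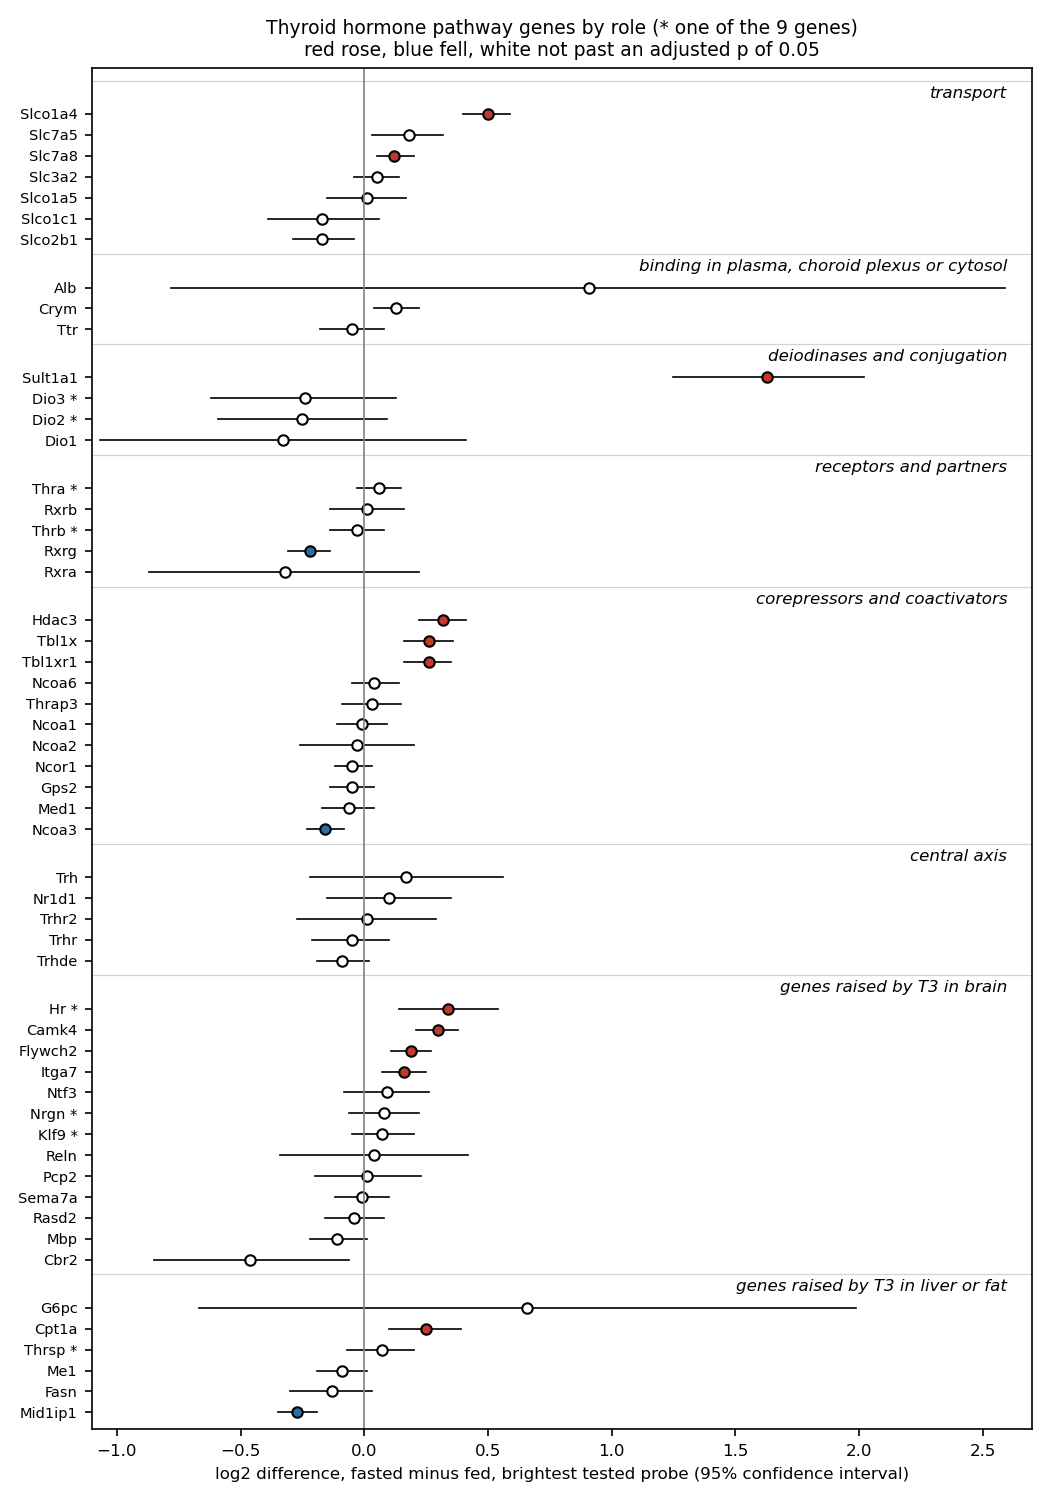
Log2 difference, fasted minus fed (horizontal axis), of 54 of the 56 tested genes of the thyroid hormone list, including those of the 9 genes (asterisks), grouped by role, with limma's 95% confidence intervals. Red points rose, blue points fell and white points did not pass, and Sult1a1 at 1.63 and Slco1a4 at 0.50 are farthest from 0 among those that passed.

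Among the transporters 2 of 8 rose and 0 fell, against 8.48% and 8.7% of all genes. Slco1a4 encodes an organic anion transporter of the blood-brain barrier that carries thyroxine and T3, and it read -0.17, -0.23, -0.28 and -0.22 in fasted brain, against -0.69, -0.66, -0.79 and -0.74 in fed brain. The groups were far apart relative to their spread. The difference was 0.50 ± 0.04 (SE; adjusted p = 0.000967), or 1.41-fold, and it passed without any single array. Slc7a8, a light chain of amino acid transporters that also carry T3, gave 0.12 (adjusted p = 0.0337) but lost its call under the replicate block (adjusted p = 0.073) and without 6 of the 8 arrays taken singly (adjusted p up to 0.0842). Slc7a5, another such light chain, gave 0.18 on its brightest probe (adjusted p = 0.0901) and 0.37 on its other probe (adjusted p = 0.0137). Slco1c1, the thyroxine transporter OATP1C1 of brain capillaries, gave -0.17 (adjusted p = 0.276), and Slco2b1 gave -0.17 (adjusted p = 0.0699, and 0.0486 with the replicate block). Of 6 endothelial markers, which include Slco1a4 and Slco1c1, Slco1a4 was the only member past the threshold, and their mean was 0.53 to 0.67 on fasted arrays and 0.56 to 0.59 on fed arrays.

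None of the 3 tested carriers of thyroid hormone passed. Ttr, which encodes transthyretin of the choroid plexus, gave -0.05 (95% confidence interval -0.18 to 0.08). Crym, a cytosolic T3-binding protein, was higher on all 4 fasted arrays, at 3.79 to 3.81, against 3.58 to 3.74 on fed arrays, and its difference of 0.13 had an adjusted p of 0.0642. Alb was well above background on 6 arrays and gave 0.91 with an interval of -0.78 to 2.59. Of 7 choroid plexus markers 1 rose (Clic6) and 1 fell (Kcnj13), against 8.48% and 8.7% of all genes. The mean of the choroid plexus markers was 0.47 to 0.53 on fasted arrays and 0.36 to 0.54 on fed arrays.

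Among enzymes, Dio1, the deiodinase of liver and kidney, was well above background on 4 arrays and gave -0.33 (adjusted p = 0.515). Sult1a1, a sulfotransferase whose human form can inactivate iodothyronines, rose by 1.63 ± 0.17 (SE; adjusted p = 0.00161). It read 2.06, 1.90, 1.59 and 1.76 in fasted brain, against -0.19, 0.43, 0.50 and 0.03 in fed brain, with no overlap.

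Of 3 receptor partners 1 fell and 0 rose. Rxrg, the retinoid X receptor of striatum and pituitary, fell by 0.22 (SE 0.04; adjusted p = 0.00797), with 1.41, 1.46, 1.55 and 1.49 in fasted brain, against 1.69, 1.67, 1.71 and 1.73 in fed brain, while another of its probes gave -0.10 (adjusted p = 0.121). Rxra gave -0.32 (adjusted p = 0.378), but it passed with the replicate block (adjusted p = 0.0339). Rxrb gave 0.01 (adjusted p = 0.938). Of 12 corepressors and coactivators, 3 rose, 1 fell and 8 did not pass, where 8.48% of all genes rose and 8.7% fell. The 3 that rose, Hdac3, Tbl1x and Tbl1xr1, encode subunits of a nuclear receptor corepressor complex. Other listed subunits of that complex did not pass by their brightest probe.

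Hdac3, its histone deacetylase, read -0.20, -0.21, -0.21 and -0.14 in fasted brain, against -0.50, -0.59, -0.50 and -0.43 in fed brain, a difference of 0.32 ± 0.04 (SE; adjusted p = 0.00327). Tbl1x gave 0.26 (adjusted p = 0.00778) and Tbl1xr1 also 0.26 (adjusted p = 0.00643), although another Tbl1xr1 probe gave 0.00 (adjusted p = 0.973). Ncor1, a scaffold of that complex, gave -0.05 (adjusted p = 0.377). The coactivator Ncoa3 fell by 0.16 (adjusted p = 0.0146), while its other probe gave -0.28 and did not pass (adjusted p = 0.486). Ncoa3 did not pass with median scaling (adjusted p = 0.0775), with normexp background correction (0.0782) or as the mean of its probes (0.278). Ncoa1 gave -0.01 (adjusted p = 0.896).

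None of the 5 tested genes of the central axis passed. Trh, the hypothalamic releasing hormone, read 0.99, 1.0, 1.01 and 1.11 in fasted brain, against 0.62, 0.66, 0.73 and 1.43 in fed brain. Fed replicate 4 stood above every other array, and the difference was 0.17 ± 0.17 (SE; adjusted p = 0.54). Without fed replicate 4 it was 0.36, and it then passed (adjusted p = 0.00903). Trhde, which degrades the releasing hormone, gave -0.09 (adjusted p = 0.218), and its receptor Trhr gave -0.05 (adjusted p = 0.625). Tshb and Cga, the pituitary subunits of thyrotropin, were not tested, and of 7 pituitary markers 5 (Gh, Prl, Tshb, Cga and Pou1f1) failed the brightness filter.

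Of the 10 other genes listed as raised by T3 in brain, 3 rose and 0 fell, against 8.48% and 8.7% of all genes. By sign 6 were higher and 4 lower in fasted brain, with a median log2 difference of 0.03. Camk4, a calmodulin-dependent kinase, read 2.88, 2.93, 3.01 and 2.94 in fasted brain, against 2.62, 2.62, 2.65 and 2.69 in fed brain. The groups did not overlap, and the difference was 0.30 ± 0.04 (SE; adjusted p = 0.00314), with 0.20 and 0.18 on its other probes (adjusted p = 0.134 and 0.113). Flywch2 gave 0.19 (adjusted p = 0.0107), and Itga7, an integrin, gave 0.16 (adjusted p = 0.0332; 0.0836 with the replicate block, where it did not pass). Itga7 passed under 10 of its 21 alternatives, and in 2 of the 8 runs that left out 1 array. Cbr2, a carbonyl reductase, gave -0.46 (adjusted p = 0.108). Mbp, the myelin basic protein whose developmental onset needs T3, gave -0.11, 0.11 and -0.22 on its 3 probes, none past the threshold. Of 6 oligodendrocyte markers 4 fell (among them Mag by 0.27 and Opalin by 0.79) and 0 rose by the brightest probe, while another probe of Mobp rose by 0.30 (adjusted p = 0.0264), with a mean of 1.95 to 2.20 on fasted arrays and 2.26 to 2.33 on fed arrays. Their part in the Mbp values was not tested.

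Among genes that T3 raises in liver or fat, Mid1ip1, the paralogue of Thrsp, fell by 0.27 (SE 0.04; adjusted p = 0.00374), with 3.08, 3.13, 3.13 and 3.13 in fasted brain, against 3.44, 3.40, 3.32 and 3.39 in fed brain. Cpt1a rose by 0.25 (adjusted p = 0.036), but its groups overlapped, and under the replicate block the call was lost (adjusted p = 0.0663). It passed under 10 of its 21 alternatives, and in 2 of the 8 runs that left out 1 array. Me1 gave -0.09 on its brightest probe (adjusted p = 0.214) and -0.16 and -0.12 on its others (adjusted p = 0.0198 and 0.0614), of which the first passed. Fasn gave -0.13 (adjusted p = 0.241).

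Further marker lists were read for cells outside these roles. Of 5 microglia markers 4 fell and 0 rose, where 8.7% of all genes fell and 8.48% rose. The mean of the microglia markers was 0.71 to 0.95 on fasted arrays and 1.12 to 1.25 on fed arrays. None of 5 inhibitory neuron, 5 cerebellar, 4 blood or 3 fat and muscle markers passed by the brightest probe. Another probe of Pvalb rose by 0.25 (adjusted p = 0.0452), and the blood marker Hba-a1 came just under the threshold with the replicate block (adjusted p = 0.05). No spot was saturated, and 24567 to 27220 probes per array were well above background. On each slide the fasted samples took positions 1 and 3 and the fed samples 2 and 4, so position cannot be told apart from fasting.

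**Figure D4:**
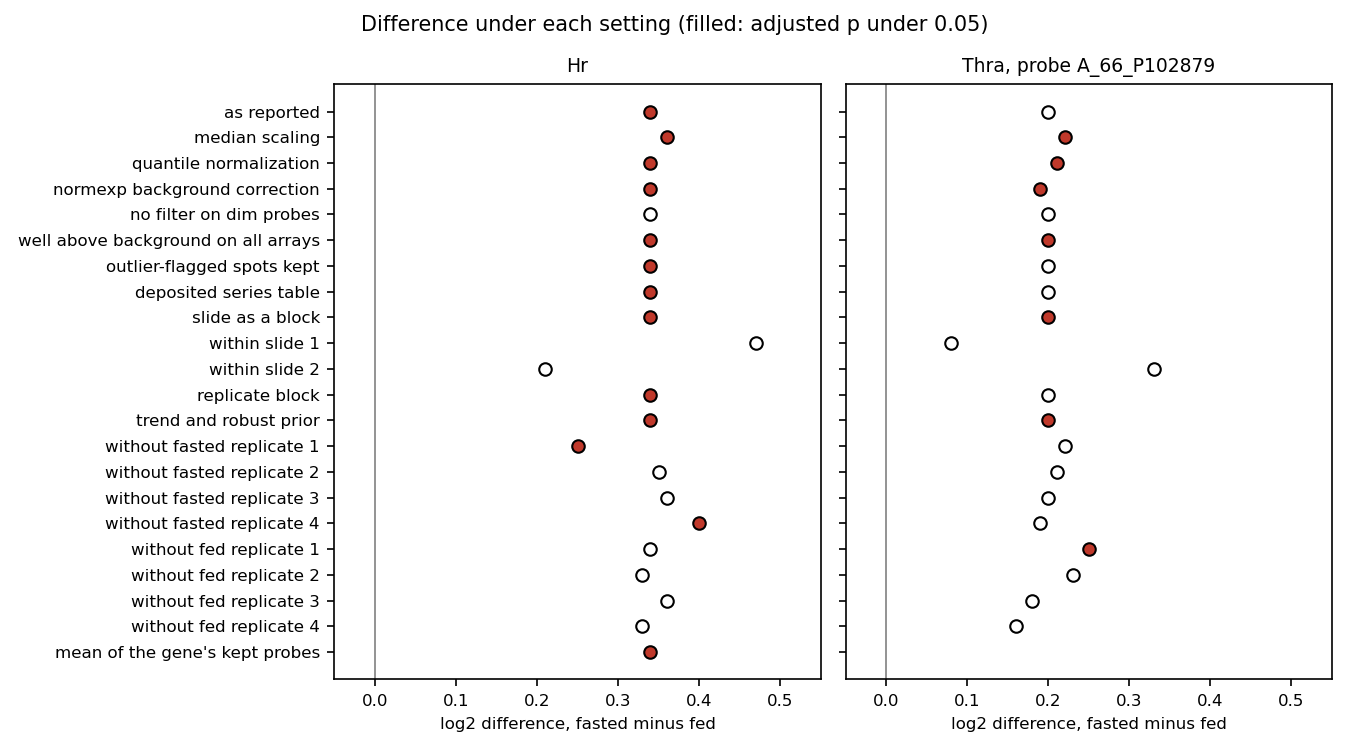
Log2 difference, fasted minus fed (horizontal axis), of Hr (left) and of the Thra probe A_66_P102879 (right) under each setting (vertical axis), filled where the adjusted p was under 0.05. All points lie above 0; Hr is unfilled with no filter on dim probes, within either slide and without 6 of the single arrays, and Thra is filled under 7 settings.

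The settings differ in how close these 2 genes come to the threshold, as the plot by setting shows. Hr kept its direction under all 21 alternatives, at 0.21 to 0.47, and passed under 12 of them. The Thra probe A_66_P102879 was 0.08 to 0.33 under its 20 alternatives and passed under 7.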

How the data were processed

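Signals of 8 single-colour (Cy3) Agilent arrays of mouse brain, 4 fasted and 4 fed, were used. Per the file headers, the deposited intensity values were made by Feature Extraction 11.0.1.1. Its multiplicative and spatial detrending were on and its separate background correction was off. Version 10.10.1.1 stands in the submitters' processing notes. In the deposited table of the whole series each spot has a linear ratio. This equals the scaled signal over a constant per probe (spread 0.000179 in log2), its baseline is unknown, and it served as an alternative. Flags for background, saturation and outliers are the deposited files' other columns.

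Here the log2 processed signal minus each array's 75th percentile was used. Control spots and outlier-flagged spots (128 to 217 per array) were left out. Probes well above background on at least 4 of 8 arrays were kept (26066). The test was limma 3.58.1 in R 4.3.3 (lmFit, eBayes, two-sided, Benjamini-Hochberg over kept probes, threshold 0.05), tested on simulated data. A gene took its brightest kept probe. Names followed RefSeq accessions (27427 probes); which exon or untranslated part a probe covers was not analysed here.

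Arrays lay on 2 slides, 2 of each group per slide; 220 probes passed for slide. Same-numbered fasted and fed arrays deviated together (r = 0.179 to 0.291, above 0.1 in every pair), and they share a slide. Differently numbered arrays of 1 slide also correlated (0.051 to 0.272, with fed replicate 1 closest to fasted replicate 2), so number and slide cannot be told apart, and the replicate block was run as an alternative. The members and the lists were chosen with earlier results of these data known. Named were all 9 genes, up to 4 list genes per role with the smallest p, a fixed set, the 3 genes nearest to a member that passed, and up to 2 markers per cell type with the smallest p; Slc1a2, the brain identity markers and markers named for another probe or a changed call fell outside it and were chosen after their values were seen. Of the list, 2 genes enter the counts but are not reported here by name. The test of probe pairs and the replicate block for markers were also chosen after seeing the data. Alternatives covered scaling, background correction, filters, the deposited table, slide, replicate block, prior, probe choice and leaving out each array.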

Additional observations from a re-analysis of the deposited data

Results flagged for a closer look

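In a group of 4 arrays, the highest or lowest value was set apart when its gap to the nearest array exceeded Dixon's 95% critical share of the group's range, which chance gives in about 1 in 20 groups. Of 86 groups tested over the named genes, 4 were set apart. Trh on fed replicate 4 was 1.43, against 0.62 to 0.73 on the other fed arrays. Slco2b1 on fasted replicate 3 was -0.90, against -1.09 to -1.07 on the other fasted arrays. The other values were close to their group: Thrb (probe A_52_P532559) was -0.06 on fasted replicate 1, against -0.11 on each of the others, and Mid1ip1 was 3.08 on fasted replicate 1, against 3.13 on each of the others.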

How the results depend on the processing

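The number of probes past the threshold, 4417, was 2846 with normexp background correction, 2605 with no filter on dim probes, 5015 with slide as a block, 3957 with the replicate block and 2782 to 3788 when an array was left out (2782 without fasted replicate 1, 2935 without fasted replicate 2, 2879 without fed replicate 2). Within slide 1 and within slide 2, with 2 arrays per group, limma called 0 probes, while 5763 and 4021 had an unadjusted p under 0.05 (1 and 2 of the member probes). Of the member probes, where 1 passed, 2 passed with median scaling, quantile normalization, normexp, the stricter filter, slide as a block and the trend and robust prior; 1 passed with the replicate block; 0 passed with no filter and within either slide, and 0 to 1 when an array was left out. The cause was not tested, beyond the larger number of probes tested without a filter and the fewer arrays within a slide. The 14 genes of the list, members included, became 0 within each slide, 16 with slide as a block, 13 with the replicate block and 10 to 13 when an array was left out. The median difference of the member genes, 0.06, was 0.04 to 0.08 over its 21 alternatives.

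Values that changed sign were near 0 or had wide intervals; where the sign changed, none passed. Within slide 1 they were Alb (-0.15), Rxrb (-0.02), Nr1d1 (-0.01) and Trhr (0.01), and within slide 2 the Thrb probes A_52_P532559 (0.01) and A_52_P877015 (0.02), Ncoa1 (0.04) and Trh (-0.02). Rxrb was -0.01 with quantile normalization. Ncoa1 was 0.01 with median scaling, 0.00 with normexp and 0.01 as the mean of its probes. When an array was left out, Rxrb ranged from -0.05 to 0.04, Ncoa1 from -0.04 to 0.01 and Trhr from -0.08 to 0.01. With the replicate block, Slc7a8, Itga7 and Cpt1a no longer passed (adjusted p = 0.073, 0.0836 and 0.0663), Slco2b1 and Rxra passed (0.0486 and 0.0339), and no other call changed among the members and the named genes of the list. The call of the marker Hba-a1 changed, as given above, and none of the 3 genes most like Hr did. Signal over background limits Slc16a10, Dio1 and Alb. Dio3 was well above background on all 8 arrays but dim. Its difference of -0.24 was -0.14 with normexp background correction and -0.15 with quantile normalization.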
